A study of Mus musculus with 9 samples.

Results

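The genes described here are 41 components of the signalling pathway of TLR4, the receptor for bacterial lipopolysaccharide (LPS), together with both beta-arrestins and the TAK1-binding protein Tab1. They were taken by symbol from the table of 15343 genes, and all 41 were found. A filter on low values, which asked for 3 or more libraries at a normalized count of 10 or higher, kept 40 of them, and the kinase Map2k6 did not pass it. They were measured by RNA sequencing in 9 libraries of primary intraperitoneal macrophages from mice marked wild type, with the strain written CF7B1/6. Every library was stimulated with LPS at 100 ng/ml for 6 hours, and no unstimulated library was analysed here. The 3 groups of 3 libraries had no pretreatment stated (LPS), 1 hour of pretreatment with docosahexaenoic acid, an omega-3 fatty acid, at 100 uM (DHA + LPS), or 1 hour of pretreatment with cpdA, known as a small-molecule agonist of the receptor GPR120, at 10 uM (cpdA + LPS). Both doses and both agents differ between the pretreated groups, so a difference between them is one of the whole pretreatment.

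LPS is handed by CD14 to the complex of TLR4 and MD-2, and the complex then recruits adaptors that split the signal. MyD88 and TIRAP lead through IRAK kinases and TRAF6 to TAK1, a kinase held with TAB1 and either TAB2 or TAB3, and from there to the IKK complex, NF-kappa B and the MAP kinases. TRIF and TRAM lead through TRAF3 to TBK1, IKK-epsilon, IRF3 and interferon. The fatty acid receptor GPR120, encoded by Ffar4, is known for binding beta-arrestin 2 when it is activated, and beta-arrestin 2 can then hold TAB1 away from TAK1. That step is one of protein binding. The RNA levels given here measure the supply of these transcripts and not the binding.

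Promoters of 3 genes are shown, each with a match to a short pattern for LPS-activated factors close to its start site. These 3 are a choice among the genes with a match. Mapk14, which was higher in the treated libraries, also has an ISRE core and is not printed. The sequences are RefSeq's for the build GRCm38.p6, a later build than the mm9 named in the submitters' processing notes. Each runs 5′ to 3′ on the minus strand of its chromosome and ends at the annotated start, and the capitals mark the match. Ikbke (chr1:131279563-131279713) has a match to TGANTCA, the AP-1 pattern searched, and the first base of the match is at -6. N stands for any base in these patterns, and the central base of this match is A. Myd88 (chr9:119340018-119340168) has a core of the interferon-stimulated response element (ISRE), GAAANNGAAA, at -40. Socs1 (chr16:10785536-10785686) has a pair of ISRE cores that overlap, at -83 and -77.
Ikbke: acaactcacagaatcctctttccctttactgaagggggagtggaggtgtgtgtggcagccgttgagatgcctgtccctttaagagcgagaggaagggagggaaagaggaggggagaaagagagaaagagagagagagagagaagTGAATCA
Myd88: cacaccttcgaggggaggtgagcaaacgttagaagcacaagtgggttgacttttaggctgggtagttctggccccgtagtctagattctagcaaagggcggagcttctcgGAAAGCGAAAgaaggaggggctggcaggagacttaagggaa
Socs1: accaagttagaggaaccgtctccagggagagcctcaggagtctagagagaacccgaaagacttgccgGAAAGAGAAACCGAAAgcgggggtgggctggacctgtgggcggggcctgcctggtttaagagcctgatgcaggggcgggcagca
Each motif was searched on both strands of windows from 250 bases before to 50 after the start, and 44 such windows matched 31 of the 41 genes. The ISRE core was in 4 of the 44 windows, those of Mapk14, Myd88, Ripk1 and Socs1, against 3.44% of 32851 mouse windows. The AP-1 pattern was in 5 windows, of Ikbke, Ikbkg and Map2k6, against 7.81%. A kappa B site, GGGNNTTTCC, was in 2 windows, of Map3k7 and Traf3, against 1.63%. A match describes the letters and is not evidence of binding, and binding was not measured here.

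Values are normalized counts, that is, read counts divided by 1 size factor per library, at depths of 13797079 to 37572822 recovered reads. The libraries LPS 3 and cpdA 3 stood apart from the others of their groups. Across all genes kept, cpdA 3 was the lowest of the 9 libraries for 27.6% and the highest for 22.7%, and LPS 3 for 20.6% and 24.1%. For the 40 kept genes of the TLR4 pathway, cpdA 3 was lowest for 21 and highest for 9, and LPS 3 lowest for 10 and highest for 14. The summed level of 9 macrophage markers was 333207 in LPS 3 and 386747 in cpdA 3, against 562949 to 588910 in the other libraries. Most of that gap was in the lysozyme gene Lyz2, at 210385.7 in LPS 3 and 269048.5 in cpdA 3 against 447053 to 459825.8 elsewhere, and all 9 markers were above 100 in every library. The summed level of 10 mesothelial and fibroblast markers, all of them kept, was highest in LPS 3 at 49315.8. Elsewhere it lay between 28595.6 and 37285.4, the latter in cpdA 3. Collagen and fibroblast genes made up nearly all of it, with Col1a2 at 9485 to 14288.1, and the mesothelial genes Msln, Upk3b, Upk1b, Wt1 and Krt19 each stayed under 600 in every library. In cpdA 3 Pdgfra was the highest of the 9 libraries at 8131.8, and Dcn at 6328.2 was below only LPS 3. Col1a1 was the lowest there, at 6026.7. The macrophage markers did not move together in the libraries that stood apart. In cpdA 3 Csf1r was the highest of the 9 libraries at 21815.9 and Gata6 at 405.6, while Fcgr1 at 957.1, Mertk at 4300.9 and Cd14 were the lowest. In LPS 3 Fcgr1 at 10269.0 and Mertk at 10614.8 were the highest, and Itgam was lowest in LPS 3 and cpdA 3, at 6344.9 and 6966.5. Of 3 nuclear or noncoding RNAs found, Neat1 reached 46513.8 in cpdA 3, beside 7382.0 to 15888.0 in the other libraries. Malat1 and Meg3 were also highest in cpdA 3, at 4341.6 and 172.0. They stood closer to the next library, with Malat1 at 3964.4 in cpdA 2 and Meg3 at 143.2 in LPS 3. These levels are not a measure of RNA quality. Whether these features have a part in the results below was not tested, and changes described below are also given without LPS 3 and cpdA 3 where those libraries moved them by more than 1.5 times or altered a call. In RNA from whole samples, fewer cells of a type and less RNA per cell cannot be told apart. The labels do not say that replicates are separate mice or cultures, so p-values measure the spread between these libraries, which may be technical.

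The genes of the TLR4 pathway that stood farthest from LPS alone were Arrb1, Peli2 and Mapk14, which were higher in all treated libraries, and Ikbke, Myd88, Ly96, Socs1 and Socs3, which were lower. None of the 40 passed the test in the fit to all 9 libraries, and Ikbke and Mapk14 were the genes that passed for both compounds without LPS 3 and cpdA 3. Changes below are differences of log2(normalized count + 1) from a limma fit to all genes and all 9 libraries, with p-values adjusted by Benjamini-Hochberg over 13895 genes and a threshold of 0.05. In this fit 0 of the 40 genes passed for DHA + LPS against LPS, where 0.0072% of all genes did, and 0 passed for cpdA + LPS against LPS, where 0.0072% did. For cpdA + LPS against DHA + LPS, 0 of 40 passed and 0.0% of all genes did. At an unadjusted p under 0.05 the counts were 5 for DHA, beside 14.2% of all genes, 12 for cpdA, beside 14.6%, and 0 for cpdA against DHA, beside 1.02%. edgeR on the recovered reads also called 0 of the 40 in each comparison, where it called 0.0216%, 0.0072% and 0.0% of all genes in the same order. DESeq2 on the same reads called 3 for DHA (Ikbke, Mapk14 and Peli2), where it called 2.27% of all genes, and 2 for cpdA (Ikbke and Mapk14), where it called 2.81%. Without LPS 3 and cpdA 3, limma called 5 for DHA (Ly96, Myd88, Ikbke, Mapk14 and Peli2), beside 6.79% of all genes, and 2 for cpdA (Ikbke and Mapk14), beside 1.6%. The LPS group of that fit was LPS 1 and LPS 2 alone, which lay close together. Over the 40 genes each stood a median of 0.022 on the log2 scale from their mean, and LPS 3 stood 0.19 from it. Its p-values rest on the spread left after the libraries that stood apart were taken out. With cpdA 3 alone left out limma called 4 for DHA (Myd88, Ikbke, Mapk14 and Peli2), beside 2.68% of all genes. For cpdA it then called 0, beside 0.0216%. That library is in neither group of the DHA comparison, so the changes with DHA were those of the fit to all 9 libraries. What differed was the estimate of spread that the groups share. Fitted to only the 6 libraries of DHA + LPS and LPS, limma called 0 of the 40 for DHA and 9 of the 13895 genes.

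In size, 34 of the 40 genes differed from LPS by less than 0.5 on the log2 scale with DHA, beside 82.8% of all genes, and 32 with cpdA, beside 84.6%. The median change of the 40 genes was -0.03 with DHA and -0.06 with cpdA, beside -0.001 and -0.004 over all genes. A positive change was seen for 17 of 40 with DHA, beside 49.8% of all genes, and for 16 of 40 with cpdA, beside 49.4%. Without LPS 3 and cpdA 3 the medians were -0.05 with DHA and 0.003 with cpdA, and 14 of 40 changes were positive with DHA, beside 48.6% of all genes, and 21 of 40 with cpdA, beside 49.5%. The counts for the compounds share the LPS libraries and are not independent of each other.

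**Figure D1:**
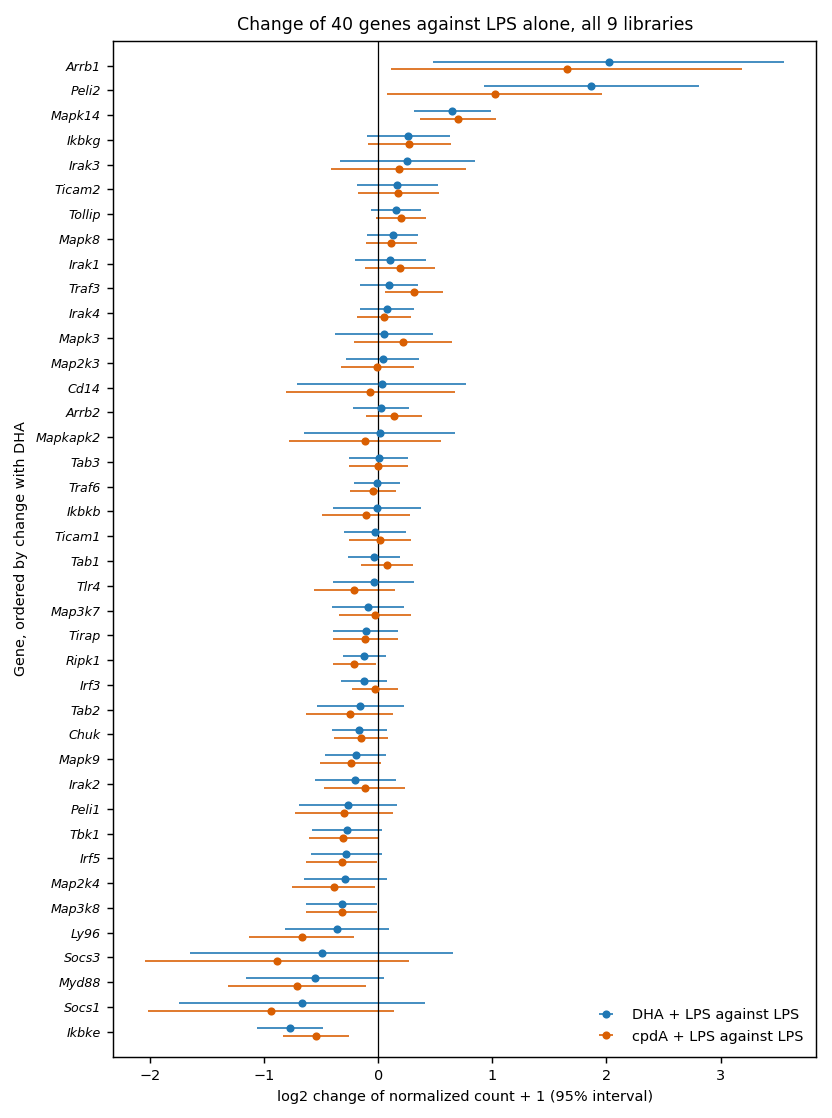
Change of each of the 40 kept genes against LPS alone on the log2 scale, with 95% intervals from limma on all 9 libraries, for DHA + LPS (blue) and cpdA + LPS (orange), ordered by the change with DHA. Arrb1 and Peli2 lie farthest to the right and have wide intervals, Mapk14 lies right of 0 and Ikbke left of 0 with narrow ones, and 34 genes with DHA lie within 0.5 of 0.

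The kinase and adaptor genes that stood apart from LPS alone in every treated library came from different levels of the pathway. With DHA, all 3 treated libraries lay above all 3 LPS libraries for 5 of 40 genes (Irak1, Arrb1, Mapk14, Peli2 and Tollip), beside 13.0% of all genes. They lay below for 13 (Ly96, Myd88, Ripk1, Tab2, Chuk, Tbk1, Ikbke, Irf5, Mapk9, Map3k8, Map2k4, Socs1 and Socs3), beside 15.0%. With cpdA, 5 of 40 lay above (Traf3, Arrb1, Mapk14, Peli2 and Tollip), beside 10.7% of all genes, and 11 lay below, beside 12.2%. Those 11 were the genes listed for DHA other than Tab2 and Chuk. Between the compounds, the groups did not overlap for 1 gene, Ripk1, which was lower with cpdA, beside 2.61% of all genes for that direction and 3.04% for the other. In the fit to the other 7 libraries, where smaller groups overlap less often by construction, 6 genes lay above and 14 below with DHA, beside 19.1% and 21.5% of all genes. For cpdA 14 lay above and 12 below, beside 24.5% and 25.0%, and between the compounds 5 lay above and 3 below, beside 9.57% and 9.42%. Ripk1, a kinase that joins TRIF and the tumour necrosis factor receptor to NF-kappa B, had means of 2235 ± 191 (SD, n = 3) with LPS, 2049 ± 29.9 with DHA + LPS and 1928 ± 23.1 with cpdA + LPS. Its changes were -0.12 with DHA and -0.21 with cpdA, and -0.05 and -0.13 without LPS 3 and cpdA 3, with adjusted p from 0.303 to 0.714 (limma).

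**Figure D2:**
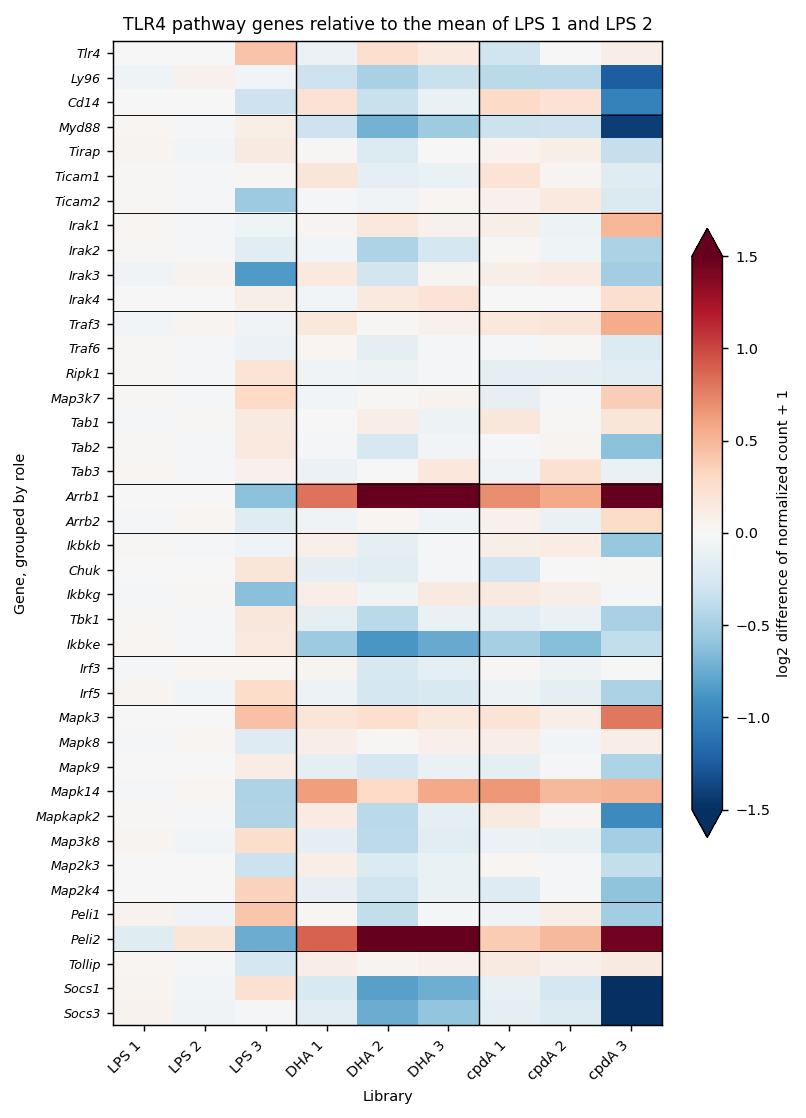
The log2 difference of normalized count + 1 in each library (columns) from the mean of LPS 1 and LPS 2, for the 40 kept genes (rows, grouped by role), with colours ending at 1.5 in either direction. Arrb1 and Peli2 are red in all 6 treated libraries, Mapk14 is red and Ikbke blue in all 6, and the column of cpdA 3 is the darkest, with a median absolute difference of 0.474.

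The receptor gene itself overlapped between the groups, while Ly96, which encodes MD-2, was lower in the treated libraries. Tlr4 (Entrez gene 21898) had normalized counts of 1431, 1427 and 1929 in LPS 1 to 3, 1339.7, 1706 and 1586 in DHA + LPS, and 1165, 1432 and 1532 in cpdA + LPS. The groups overlapped, and the highest value was that of LPS 3. The change was -0.04 (95% interval -0.39 to 0.31, adjusted p = 0.928, limma) with DHA and -0.21 (adjusted p = 0.565) with cpdA.

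Ly96 (17087), whose protein holds the lipid part of LPS against TLR4, had counts of 785, 855 and 798 with LPS, 662, 586 and 651 with DHA + LPS, and 619, 619 and 346 with cpdA + LPS. Every treated library lay below every LPS library, and cpdA 3 was the lowest. The change with DHA was -0.36 (SE 0.20, adjusted p = 0.439, limma) and that with cpdA was -0.67 (SE 0.20, adjusted p = 0.231). On leaving out LPS 3 and cpdA 3, Ly96 fell with DHA by 0.37 on the log2 scale (adjusted p = 0.0335, limma), and the value for cpdA was -0.40 (adjusted p = 0.085). The size with cpdA thus moved by more than 1.5 times on leaving those libraries out, while that with DHA hardly moved.

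Cd14 (12475), the surface protein that loads LPS onto the complex, had counts of 25184, 25439 and 20469 with LPS, 29492, 20034 and 23622 with DHA + LPS, and 30931, 29484 and 12489.8 with cpdA + LPS. The libraries cpdA 1 and cpdA 2 were above all LPS libraries, and cpdA 3 was the lowest of all 9. The changes were 0.03 (adjusted p = 0.975, limma) with DHA and -0.07 (adjusted p = 0.948) with cpdA. The value for cpdA was 0.36 without cpdA 3. Per kilobase of transcript Cd14 had the highest LPS mean of the 41 genes, 14441, and Tlr4 stood at rank 28 with 391.

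Among the adaptors, Myd88 was the one lower in every treated library. Myd88 (17874), the adaptor of most Toll-like receptors and of the interleukin-1 receptor, had counts of 5856, 5626 and 6109 with LPS, 4617, 3507 and 3954 with DHA + LPS, and 4577, 4625 and 2158 with cpdA + LPS. The DHA + LPS mean was 68.7% of the LPS mean and that of cpdA + LPS 64.6%. All 6 treated libraries lay below all 3 LPS libraries, and cpdA 3 was again the lowest. The change was -0.55 (SE 0.27, adjusted p = 0.386, limma) with DHA and -0.71 (SE 0.27, adjusted p = 0.285) with cpdA. In the fit without LPS 3 and cpdA 3, Myd88 fell with DHA by 0.52 on the log2 scale (adjusted p = 0.0162, limma). The value with cpdA was then -0.32 (adjusted p = 0.29), less than when cpdA 3 was included. Between the compounds the value turned from -0.16 (adjusted p = 1.0, limma) to 0.20 (adjusted p = 0.754) on leaving those libraries out.

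The other adaptors overlapped between groups. Tirap, which bridges MyD88 to the receptor, had means of 1026 ± 64.3 (SD, n = 3) with LPS, 953 ± 78.3 with DHA + LPS and 955 ± 149 with cpdA + LPS. Ticam1, which encodes TRIF, had means of 1414 ± 17.2, 1394 ± 174 and 1439 ± 196 in the same order. Ticam2, which encodes TRAM, ran from 1394 in LPS 3 to 2239 in cpdA 2, and LPS 1 and 2 stood among the treated libraries.

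The kinases and ligases next to MyD88 lay near their LPS level in most libraries. Irak4, which starts the IRAK cascade, lay between 508 and 619 in all 9 libraries. Irak1, its partner, had means of 2016 ± 65.0 with LPS, 2172 ± 92.7 with DHA + LPS and 2333 ± 498 with cpdA + LPS (SD, n = 3). Irak2, which sustains late MyD88 signalling, had means of 5696 ± 377, 4990 ± 731 and 5299 ± 918. Irak3, which encodes the inhibitory IRAK-M, ranged from 2241 in LPS 3 to 4469.5 in DHA 1, and the lower of its values sat in LPS 3 and cpdA 3. Traf6, the ubiquitin ligase that activates TAK1, ran from 1271 to 1498. Traf3, the branch point towards interferon, had means of 1251 ± 40.0 with LPS, 1335 ± 67.2 with DHA + LPS and 1564 ± 251 with cpdA + LPS, and its highest value was the 1853.5 of cpdA 3. The change of Traf3 with cpdA was 0.31 (adjusted p = 0.271, limma), and 0.17 (adjusted p = 0.513) without LPS 3 and cpdA 3. For Irak1 with cpdA it was 0.19 (adjusted p = 0.545, limma), and 0.004 (adjusted p = 0.997) without them.

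For the TAK1 complex and beta-arrestin 2, the components of the GPR120 model, the groups overlapped in all but 1 of the comparisons with LPS. Map3k7 (26409), which encodes TAK1, had counts of 1485, 1460.0 and 1814 with LPS, 1429, 1492 and 1528 with DHA + LPS, and 1348, 1449 and 1906 with cpdA + LPS. The highest values were those of LPS 3 and cpdA 3, and the other 7 libraries lay between 1348 and 1528. The change was -0.09 (95% interval -0.41 to 0.22, adjusted p = 0.796, limma) with DHA and -0.03 (-0.34 to 0.29, adjusted p = 0.953) with cpdA. Without LPS 3 and cpdA 3 the value with cpdA was -0.075 (adjusted p = 0.826, limma).

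Tab1 (66513), the TAK1 partner that beta-arrestin 2 can bind, had counts of 321, 329.6 and 356 with LPS, 323, 349.6 and 307 with DHA + LPS, and 367, 329.6 and 368 with cpdA + LPS. All 9 libraries lay within a narrow range, and no group stood apart. The change was -0.04 (95% interval -0.27 to 0.19, adjusted p = 0.887, limma) with DHA and 0.08 (-0.15 to 0.31, adjusted p = 0.750) with cpdA. Between the compounds it was 0.12 (-0.11 to 0.35, adjusted p = 1.0). These intervals do not show that Tab1 was equal, but they end short of a log2 difference of 0.5.

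Tab2 (68652), a ubiquitin-binding partner of TAK1, had counts of 5633, 5511 and 6178 with LPS, 5462, 4707 and 5409.7 with DHA + LPS, and 5467, 5717 and 3649 with cpdA + LPS. It was lower in every DHA library than in every LPS library, by a small margin, and cpdA 3 was far below the rest. The change was -0.16 (adjusted p = 0.698, limma) with DHA and -0.25 (adjusted p = 0.516) with cpdA, and without LPS 3 and cpdA 3 it was -0.11 (adjusted p = 0.529) and 0.005 (adjusted p = 0.997). Tab3, the alternative to TAB2 in the complex, lay between 410.2 and 516 in all libraries and had means of 448 ± 15.0, 449.9 ± 38.4 and 450.4 ± 57.1 (SD, n = 3) with LPS, DHA + LPS and cpdA + LPS.

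**Figure D3:**
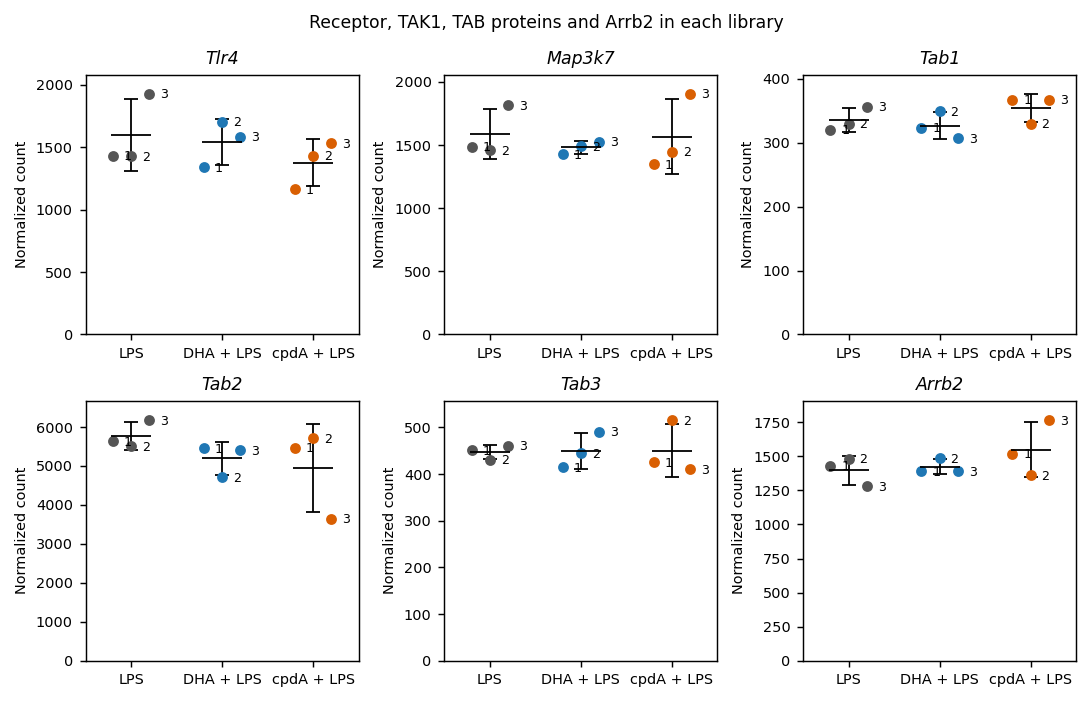
Normalized counts of the receptor gene Tlr4, the TAK1 gene Map3k7, Tab1, Tab2, Tab3 and Arrb2 in each library (points, numbered by replicate), with the mean and SD of each group (bars). The 3 groups overlap for every gene but Tab2, where the DHA + LPS libraries, at most 5462, lie below the LPS libraries, at least 5511.

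Of the arrestin genes, Arrb2 overlapped between all groups and Arrb1 was higher in every treated library. Arrb2 (216869), which encodes beta-arrestin 2, had counts of 1431, 1483 and 1280.0 with LPS, 1391, 1485 and 1389 with DHA + LPS, and 1520.4, 1362 and 1766 with cpdA + LPS. The groups overlapped, and LPS 3 and cpdA 3 marked the lowest and the highest value. The change was 0.03 (95% interval -0.22 to 0.27, adjusted p = 0.933, limma) with DHA and 0.14 (-0.10 to 0.39, adjusted p = 0.572) with cpdA. Between the compounds it was 0.12 (-0.13 to 0.36, adjusted p = 1.0), and 0.018 (adjusted p = 0.964, limma) without LPS 3 and cpdA 3.

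Arrb1 (109689), which encodes beta-arrestin 1, had counts of 223, 222 and 145 with LPS, 392, 1512 and 821 with DHA + LPS, and 361, 331 and 1892 with cpdA + LPS. Every treated library was above every LPS library, but DHA 2 and cpdA 3 were several times above the lowest library of their own group. The DHA + LPS mean was 462% of the LPS mean and the cpdA + LPS mean 438%, with SDs of 565 around a mean of 909 and of 892 around a mean of 861. The highest library exceeded the lowest by 13.0 times, the widest span of the 40 kept genes.

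The change of Arrb1 did not pass the test: it was 2.02 (95% interval 0.48 to 3.56, adjusted p = 0.281, limma) with DHA and 1.65 (0.12 to 3.19, adjusted p = 0.315) with cpdA. Over 21 alternative settings the adjusted p ran from 0.0563 to 0.668 for DHA and from 0.113 to 0.811 for cpdA. The value for cpdA was 0.84 without cpdA 3 and 0.63 (-1.03 to 2.30, adjusted p = 0.811, limma) without LPS 3 and cpdA 3. That for DHA was 1.82 (adjusted p = 0.157) without those libraries. The difference between the compounds was -0.37 (-1.91 to 1.17, adjusted p = 1.0), too wide an interval to order them. Without LPS 3 and cpdA 3 it was -1.184 (-2.704 to 0.335, adjusted p = 0.754, limma). In that fit cpdA 1 and cpdA 2 lay below all DHA libraries, and the interval still held 0. Arrb1 was also a low transcript, at 27.6 per kilobase in the LPS mean, rank 39 of the 41 genes, while Arrb2 stood at rank 18 with 757.

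Of the kinases that phosphorylate the NF-kappa B inhibitor or the IRF factors, Ikbke had the largest change with either compound. Ikbke (56489), which encodes IKK-epsilon, an LPS-inducible kinase of the interferon branch, had counts of 13304, 12796 and 14425 with LPS, 8966, 7128 and 7739 with DHA + LPS, and 9269, 8408 and 10124 with cpdA + LPS. All 6 treated libraries lay well below the LPS libraries, and LPS 3 and cpdA 3 were the highest of their own groups. The DHA + LPS mean was 58.8% of the LPS mean and that of cpdA + LPS 68.6%.

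The change of Ikbke was -0.77 (SE 0.13, 95% interval -1.06 to -0.48, adjusted p = 0.159, limma) with DHA and -0.55 (SE 0.13, -0.84 to -0.26, adjusted p = 0.208) with cpdA, short of the threshold over all genes. Without LPS 3 and cpdA 3, Ikbke fell by 0.72 on the log2 scale with DHA (adjusted p = 0.00304, limma) and by 0.56 with cpdA (adjusted p = 0.0356). With DESeq2 on all 9 libraries it fell by 0.76 (adjusted p = 4.39e-06) and by 0.54 (adjusted p = 0.00356). Leaving out each library in turn gave values from -0.86 to -0.70 with DHA and from -0.61 to -0.48 with cpdA. The difference between the compounds was 0.23 (-0.07 to 0.51, adjusted p = 1.0, limma).

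The related kinases lay nearer to their LPS level. Tbk1, the close relative of IKK-epsilon, had means of 5219 ± 377 with LPS, 4330.1 ± 481 with DHA + LPS and 4239.9 ± 578 with cpdA + LPS (SD, n = 3), with no overlap of the treated libraries with LPS. Chuk, which encodes IKK-alpha, had means of 1565 ± 113, 1395 ± 80.6 and 1417 ± 159. Ikbkb, which encodes IKK-beta, had means of 3506 ± 80.8, 3485 ± 255 and 3326 ± 813, and Ikbkg, the regulatory subunit NEMO, ran from 1455 in LPS 3 to 2463 in cpdA 1. Irf3, the factor that TBK1 and IKK-epsilon phosphorylate, had means of 887 ± 21.5, 814 ± 80.9 and 868 ± 30.5. Irf5, which acts downstream of MyD88, had means of 7312 ± 838, 6005 ± 404 and 5880.5 ± 836, with the treated libraries below the LPS libraries. With cpdA the change of Tbk1 went from -0.31 (adjusted p = 0.337, limma) to -0.13 (adjusted p = 0.732) without LPS 3 and cpdA 3, and that of Irf5 from -0.32 (adjusted p = 0.336) to -0.11 (adjusted p = 0.771). With DHA the change of Chuk went from -0.17 (adjusted p = 0.492, limma) to -0.11 (adjusted p = 0.555).

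**Figure D4:**
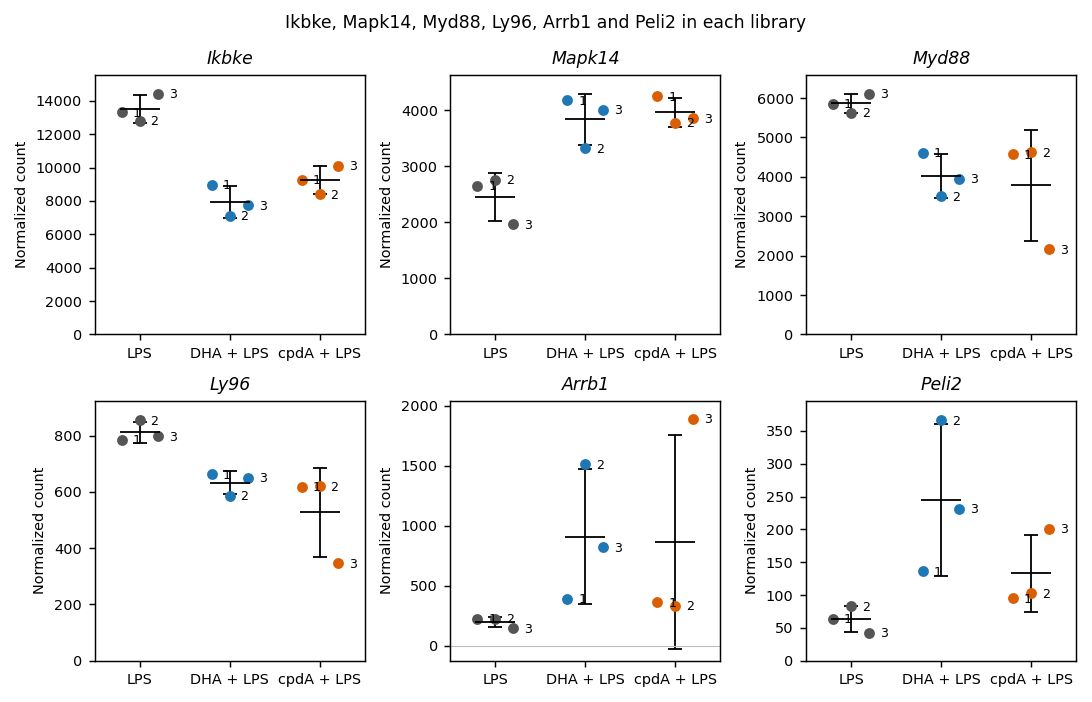
Normalized counts of Ikbke, Mapk14, Myd88, Ly96, Arrb1 and Peli2 in each library (points, numbered by replicate), with the mean and SD of each group (bars). In all 6 panels the treated libraries lie on 1 side of the LPS libraries, with cpdA 3 the lowest point for Myd88 and Ly96 and the highest for Arrb1.

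In the MAP kinase branch Mapk14 was higher in all treated libraries. Mapk14 (26416), which encodes p38-alpha, the main stress kinase of LPS-treated macrophages, had counts of 2649.8, 2759.9 and 1969 with LPS, 4184, 3322 and 4011 with DHA + LPS, and 4252, 3779 and 3857 with cpdA + LPS. The lowest treated library, DHA 2, was above the highest LPS library, and LPS 3 was the lowest of all. The DHA + LPS mean was 156% of the LPS mean and that of cpdA + LPS 161%.

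The change of Mapk14 was 0.65 (SE 0.15, 95% interval 0.32 to 0.98, adjusted p = 0.201, limma) with DHA and 0.70 (SE 0.15, 0.37 to 1.04, adjusted p = 0.179) with cpdA. With LPS 3 and cpdA 3 left out, Mapk14 rose by 0.50 with DHA (adjusted p = 0.0179, limma) and by 0.57 with cpdA (adjusted p = 0.0316). With DESeq2 on all 9 libraries it rose by 0.65 (adjusted p = 0.00801) and by 0.69 (adjusted p = 0.00301). The difference between the compounds was 0.05 (-0.28 to 0.38, adjusted p = 1.0, limma).

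With all 9 libraries the other genes of this branch gave no such separation upwards. Mapkapk2, the kinase that p38 activates and that stabilises cytokine transcripts, had means of 31358 ± 5374, 31641 ± 5786 and 30282 ± 10942 (SD, n = 3) with LPS, DHA + LPS and cpdA + LPS. Map2k3, which phosphorylates p38, had means of 2154 ± 272, 2208 ± 238 and 2146 ± 298. Map2k6, the other p38 kinase kinase, was at 4.3, 4.6 and 2.0 with LPS, 0.0, 16.9 and 11.1 with DHA + LPS, and 1.1, 3.3 and 2.7 with cpdA + LPS, which is too low for a comparison. Mapk3, which encodes ERK1, ran from 3485 in LPS 2 to 6075 in cpdA 3, and Mapk8, which encodes JNK1, from 301 to 368. For Mapk3 the overlap came from LPS 3, at 4738.5, while LPS 1 and LPS 2 lay below all treated libraries. Its change with DHA went from 0.051 (adjusted p = 0.924, limma) to 0.197 (adjusted p = 0.162) without LPS 3 and cpdA 3. With cpdA it went from 0.218 (adjusted p = 0.63) to 0.147 (adjusted p = 0.581).

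Mapk9, Map2k4 and Map3k8 were lower in the treated libraries, by small amounts. Mapk9, which encodes JNK2, had means of 2045 ± 88.8 with LPS, 1786 ± 99.6 with DHA + LPS and 1746 ± 271 with cpdA + LPS. Map2k4, a kinase of the JNK proteins, had means of 2970.0 ± 431, 2417 ± 178 and 2284 ± 454. Map3k8, which encodes TPL2, the kinase through which LPS reaches ERK, had means of 1679.6 ± 184, 1344 ± 128 and 1353 ± 213. For cpdA these differences rested largely on LPS 3 and cpdA 3. On leaving those libraries out the change of Mapk9 went from -0.24 to -0.07, that of Map2k4 from -0.39 to -0.11 and that of Map3k8 from -0.32 to -0.10, with adjusted p from 0.317 to 0.840 (limma). For DHA the change of Map2k4 went from -0.29 (adjusted p = 0.434, limma) to -0.17 (adjusted p = 0.270).

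Of the Pellino ubiquitin ligases, which act on the IRAK proteins, Peli2 was higher than with LPS alone in every treated library. Peli2 (93834) had counts of 64.1, 83.0 and 43.0 with LPS, 136, 366 and 232 with DHA + LPS, and 95.2, 102 and 201 with cpdA + LPS. All treated libraries were above the LPS libraries, cpdA 1 and 2 by little, and DHA 2 and cpdA 3 were the highest of their groups, as they were for Arrb1. The DHA + LPS mean was 386% of the LPS mean and that of cpdA + LPS 209.7%.

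The change of Peli2 was 1.87 (SE 0.42, 95% interval 0.93 to 2.81, adjusted p = 0.201, limma) with DHA and 1.02 (SE 0.42, adjusted p = 0.312) with cpdA. In the fit to the other 7 libraries it rose with DHA by 1.62 (adjusted p = 0.0363, limma), and with cpdA the value was 0.43 (adjusted p = 0.774). With DESeq2 on all 9 libraries it rose by 1.97 with DHA (adjusted p = 0.00192). The difference between the compounds was -0.85 (-1.79 to 0.09, adjusted p = 1.0, limma). Peli2 was the least abundant of the 40 kept genes per kilobase, at 10.7 in the LPS mean. Peli1, its more abundant relative, had means of 5481 ± 972, 4555 ± 633 and 4477 ± 926 (SD, n = 3), with overlap between the groups.

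The inhibitor genes Socs1 and Socs3 were lower in the treated groups, and for cpdA by far less without LPS 3 and cpdA 3. Socs1 (12703), which blocks JAK kinases and dampens TLR signalling, had counts of 1334, 1263 and 1522 with LPS, 1110.1, 738 and 780.1 with DHA + LPS, and 1204, 1085 and 279.8 with cpdA + LPS. Every treated library lay below every LPS library, cpdA 1 by little and cpdA 3 by the most. The change was -0.67 (adjusted p = 0.536, limma) with DHA and -0.94 (adjusted p = 0.393) with cpdA. The values without LPS 3 and cpdA 3 were -0.59 (adjusted p = 0.0502) and -0.18 (adjusted p = 0.775).

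Socs3 (12702), which restrains signalling of the interleukin-6 receptor, had counts of 17611, 16362 and 16609 with LPS, 15083, 10106 and 11239 with DHA + LPS, and 15499.6, 14752 and 3318 with cpdA + LPS. All treated libraries lay below the LPS libraries, DHA 1 and cpdA 1 and 2 by the least and cpdA 3 by the most. The change was -0.49 (adjusted p = 0.679, limma) with DHA and -0.89 (adjusted p = 0.447) with cpdA, and without LPS 3 and cpdA 3 it was -0.50 (adjusted p = 0.0598) and -0.17 (adjusted p = 0.78). Tollip, an endosomal adaptor that holds IRAK1 back, had means of 2945 ± 310 with LPS, 3274 ± 59.1 with DHA + LPS and 3377 ± 82.0 with cpdA + LPS (SD, n = 3), with the treated libraries above the LPS libraries. Its change went from 0.16 (adjusted p = 0.474, limma) to 0.07 (adjusted p = 0.630) with DHA and from 0.20 (adjusted p = 0.370) to 0.10 (adjusted p = 0.728) with cpdA on leaving out LPS 3 and cpdA 3.

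A wider list of other genes of the pathway held 105 symbols, of which 99 were in the table and 94 passed the filter. In the fit to all 9 libraries 0 of the 94 passed in each comparison, with 16, 25 and 0 at an unadjusted p under 0.05 for DHA, cpdA and cpdA against DHA, beside 14.2%, 14.6% and 1.02% of all genes. On the recovered reads edgeR called 0 of the 94 in each comparison, and DESeq2 called 5 for DHA, beside 2.27% of all genes, 8 for cpdA, beside 2.81%, and 0 for cpdA against DHA, beside 0.0%. Their median change was -0.09 with DHA and -0.11 with cpdA, and without LPS 3 and cpdA 3 it was -0.11 and -0.03. Without LPS 3 and cpdA 3, 17 of 94 passed for DHA, 2 higher and 15 lower, and 5 passed for cpdA, 1 higher and 4 lower, beside 2.75% of all genes higher and 4.04% lower for DHA, and 0.712% higher and 0.885% lower for cpdA. Receptors for nucleic acids were among the largest of these with DHA in that fit. Tlr3, which senses double-stranded RNA, fell by 0.79 (adjusted p = 0.00253, limma), and Tlr9, which senses CpG DNA, fell by 0.70 (adjusted p = 0.0106). Tlr13, a receptor of bacterial ribosomal RNA in mice, rose by 0.78 (adjusted p = 0.00705).

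The other genes named by the size of their change in that fit were Irf7 and Cish for DHA. Irf7, the interferon-inducible amplifier of the interferon response, fell by 0.84 (adjusted p = 0.00465, limma), with counts of 35738.5 and 32798 in LPS 1 and 2 and 16213 to 23250.5 with DHA + LPS. Cish, a cytokine-inducible inhibitor of the SOCS family, fell by 0.85 (adjusted p = 0.00472, limma), but LPS 3 was at 289.6, below all DHA libraries, and the value with all 9 libraries was -0.24 (adjusted p = 0.923). With cpdA, Cd180 and Ly86, which encode a TLR4-like receptor of B cells and macrophages and its MD-1 partner, fell by 0.59 (adjusted p = 0.0106, limma) and by 0.64 (adjusted p = 0.00577). Tlr3 fell by 0.63 (adjusted p = 0.0275, limma) and Pik3cd, a phosphoinositide 3-kinase subunit, fell by 0.47 (adjusted p = 0.028). Hsp90b1, which encodes gp96, the chaperone of Toll-like receptors, rose by 0.61 (adjusted p = 0.0139, limma).

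In 5 of these 10 changes leaving out LPS 3 and cpdA 3 moved the value by more than 1.5 times. With all 9 libraries they were -1.27 (adjusted p = 0.264, limma) for Tlr9 with DHA, and -1.36 (adjusted p = 0.224) for Tlr3, -1.07 (adjusted p = 0.198) for Ly86 and -0.80 (adjusted p = 0.208) for Pik3cd with cpdA, beside the value of Cish given above. LPS 3 held the highest count of Tlr3, 6665 beside 3034 and 3187 in LPS 2 and 1, and of Tlr9, 1249 beside 384 and 386. Ffar4, the gene of GPR120, had 0 reads in 7 of the 9 libraries and normalized counts of 2.0 in LPS 3 and 2.7 in cpdA 3. A count of 0 allows up to 3 reads, or 2.46 to 6.69 normalized counts depending on the library, so transcripts below that level were not detectable at this depth. The G protein-coupled receptor kinases that prepare receptors for arrestins, Adrbk1, Adrbk2, Grk5 and Grk6, were all kept by the filter. With all 9 libraries 0 of these 4 passed the test. Adrbk2, named here after its values were seen, fell with DHA without LPS 3 and cpdA 3 by 0.36 (adjusted p = 0.0324, limma), and the value with all 9 libraries was -0.31 (adjusted p = 0.273). Grk5 and Grk6 went the other way with DHA, with means of 251 and 520 beside 188 and 439 with LPS. All DHA libraries lay above all LPS libraries for both, beside 13.0% of all genes, and below for Adrbk2, beside 15.0%. Adrbk1 overlapped.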

How the data were processed

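Per the submitters' processing notes, base calls came from CASAVA 1.8.2, reads were aligned with Bowtie2 to mm9 and the tool DESeq is named. The deposited table gives 1 signal value per gene and library, a read count that the authors scaled by a single factor for each library, as the values themselves show. Between 99.909% and 99.993% of the values in a library were multiples of the worth of 1 read within 0.05, which gave the recovered reads. The counting program, annotation, kit and use of strand are not stated in these sources, so reads of overlapping or antisense genes cannot be separated. Growth and extraction texts of the labels describe different experiments and were left aside. Depth limits the genes of low level most, and floors cover counting error only.

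Groups were taken from the titles. The 13895 genes with 3 or more libraries at a value of 10 or higher were fitted with limma 3.58.1 under R 4.3.3 (statmod 1.5.0) as log2(value + 1) with trend and robust moderation and Benjamini-Hochberg adjustment over all of them. This scale understates changes of low genes. The alternatives, 21 in number, were pseudocounts of 0.5 and 8, no filter, a mean of at least 50, quantile and TMM scaling, no trend or robust moderation, only the libraries compared, a replicate block, DESeq2 1.42.0 and edgeR 4.0.16 with its quasi-likelihood test on the recovered reads, each library left out in turn, and both LPS 3 and cpdA 3 left out. The fits were also run on simulated counts with the same spread setting for every gene and no libraries that stood apart. That run does not show how the fits perform on these libraries.

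The genes, the lists, the tests and the alternatives were chosen with earlier results of these data known. Values in every library are given for a set of anchor genes, for genes past the test with all 9 libraries or without LPS 3 and cpdA 3, for those with a log2 change of at least 0.5 and no overlap with LPS, and for the 3 of widest spread. Other pathway genes are named by the 5 largest changes per comparison among those that passed. Levels per kilobase divide the LPS mean by the longest protein-coding GENCODE M21 transcript. Deviations of same-number libraries from their group means correlated between 0.234 and 0.437 for every one of the 3 LPS and cpdA pairs, which meets the rule of over 0.1 for pairing. They did not meet it for DHA with LPS or cpdA with DHA. Some LPS and cpdA libraries of different numbers correlated as well, at 0.292 (cpdA 1 with LPS 2) and 0.264 (cpdA 2 with LPS 1). Pairs of LPS 3 or cpdA 3 with another number were negative, from -0.432 to -0.306. These correlations thus set LPS 3 and cpdA 3 apart and do not show that equal numbers mark pairs. What a replicate number stands for is not stated.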

Additional observations from a re-analysis of the deposited data

How the results depend on the processing

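Of 1386 alternative values for 66 changes of single genes, 1315 kept their direction and side of the threshold, 37 moved past the threshold in the same direction and 34 turned sign, over 13 changes. As none of the 66 passed the test in the main fit, the 1315 are values that stayed short of the threshold. Some of the 66 were followed because they passed without LPS 3 and cpdA 3, so part of the 37 was set by that choice. The count of pathway genes past the test moved from 0 to 3 for DHA and 2 for cpdA with DESeq2, and to 5 and 2 without LPS 3 and cpdA 3. Leaving out 1 library gave 0 to 4 for DHA, the 4 without cpdA 3 (Ikbke, Mapk14, Myd88 and Peli2, beside 2.68% of all genes), and 0 to 0 for cpdA and for cpdA against DHA. All other settings gave 0. The replicate block, which treats libraries of the same number as belonging together, also gave 0 of the pathway genes in each comparison. Over all genes it called 0 for DHA and 0 for cpdA, where 1 and 1 were called without it. Over all genes the calls ran from 0 to 943 for DHA, from 0 to 391 for cpdA and stayed at 0 between the compounds.

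The log2 changes that turned sign were near 0 or rested on 1 library, and the cause was not tested. Without LPS 3 and cpdA 3, DHA values were 0.104 for Tlr4, -0.072 for Cd14, 0.01 for Map3k7, 0.005 for Tab1 and -0.036 for Arrb2. For cpdA they were 0.255 for Cd14, 0.005 for Tab2 and -0.018 for Arrb2, and Myd88 between the compounds was 0.202. Cd14 with cpdA was 0.155 with quantile scaling, 0.039 with edgeR and 0.038 with DESeq2, and Map3k7 with cpdA was 0.024 with quantile scaling. Leaving out each library in turn gave for DHA -0.116 to 0.104 for Tlr4, -0.116 to 0.163 for Cd14, -0.147 to 0.01 for Map3k7, -0.089 to 0.005 for Tab1, -0.036 to 0.07 for Arrb2 and -0.85 to 0.073 for Cish. For cpdA it gave -0.297 to 0.357 for Cd14 and -0.176 to 0.074 for Map3k7. Between the compounds it gave -0.05 to 0.117 for Mapk14, -0.348 to 0.202 for Myd88 and -1.184 to 0.102 for Arrb1. The called changes of Ikbke and Mapk14 kept their direction under all 21 alternatives. With cpdA, Socs1 ran from -1.311 to -0.26 and Socs3 from -1.268 to -0.156, both nearest to 0 without cpdA 3. Depth limits Map2k6 and Ffar4, whose counts lie near the floor.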

Other observations

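Beside the macrophage markers and the mesothelial and fibroblast markers given above, markers of other cell types were summed in each library. Of 9 neutrophil markers 4 were in the table, with a summed level of 230.2 to 394.1 with LPS, 425.1 to 506.3 with DHA + LPS and 143.0 to 507.9 with cpdA + LPS, and Ltf stayed under 10 in every library. Of 6 B cell markers 5 were found, with sums of 253.7 to 311.2, 182.7 to 229.5 and 231.7 to 320.4 in the same order. The 3 T and NK cell markers found of 7 summed to 297.8 to 423.6, 151.0 to 191.7 and 74.2 to 205.8. The 5 mast cell markers found of 7 summed to 240.9 to 305.9, 142.1 to 162.9 and 158.8 to 355.7. The 5 dendritic cell markers found of 6 summed to 204.0 to 275.2, 149.1 to 182.8 and 146.6 to 180.4. The 4 endothelial markers found of 5 summed to 394.0 to 680.4, 294.8 to 321.0 and 163.0 to 370.7. The 1 erythrocyte marker found, Alas2, stayed under 10. Sums of T and NK cell, dendritic cell and endothelial markers were higher in all LPS libraries than in all treated ones. The T and NK cell sum was nearly all Lck, 289.1 of 297.8 in LPS 1, with 1 of the 3 genes kept and Cd3d and Cd2 under 17 in every library. The endothelial sum was mostly Kdr, 368.4 of 483.6 in LPS 1. Kdr and Pecam1 were higher in all LPS libraries, while Cdh5 and Tie1 overlapped with the treated ones. Of the dendritic cell markers Xcr1 was higher in all LPS libraries, and Zbtb46, Ccr7, Siglech and Clec9a overlapped. The part of these cell types in the changes of the TLR4 genes was not tested.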
